A study of Mus musculus with 9 samples.

Results

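The genes described here are the nuclear genes for proteins of the mitochondrial ribosome, taken as every gene whose symbol is Mrpl or Mrps followed by a number and that has a probe set of its own on the array. There were 74 such genes, 46 named Mrpl and 28 named Mrps, among 18820 genes measured. The gene table used here lists 78 protein-coding genes of this kind, and Mrpl24, Mrpl43, Mrpl53 and Mrps6 were left out because their probe sets match several genes. They were measured in the hippocampus of C57BL/6 mice 12 to 14 weeks old on Affymetrix gene arrays, 9 in total. The 3 groups were control mice, mice that had tibia fracture surgery, and mice that received the lipid mediator Maresin 1 ahead of the same operation, with 3 arrays each. Tissue was collected 72 h after the operation. The titles call the arrays biological replicates, and whether an array holds 1 mouse or a pool is not stated in the labels. No genetic change is labelled in any group. The series title asks whether Maresin 1 lessens neuroinflammation in a model of cognitive disorders around surgery. Expression of the mitoribosomal genes was compared among the 3 groups.

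The mitochondrial ribosome makes the few proteins encoded by mitochondrial DNA, which are core subunits of the respiratory chain complexes and of ATP synthase. Its RNAs come from mitochondrial DNA, whereas its proteins are encoded in the nucleus, made in the cytosol and imported. The large subunit (Mrpl symbols, with Mrps30 and Mrps18a) forms peptide bonds, and the small subunit (Mrps symbols) binds messenger RNA and decodes it. In both subunits some proteins descend from bacterial ribosomal proteins and others were added in mitochondria. The 74 genes fell into 29 large-subunit genes with a bacterial homologue, 19 mitochondria-specific large-subunit genes, 15 small-subunit genes with a bacterial homologue and 10 mitochondria-specific small-subunit genes. Mrps36 was kept in none of these classes, because its product is now assigned to the 2-oxoglutarate dehydrogenase complex. Neurons rely on oxidative phosphorylation for most of their ATP, which is the setting in which these genes act in the hippocampus.

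Start regions show sequence features that the choice of members did not use. RefSeq promoter sequences (GRCm38.p6), 71 in total, matched 65 of the 74 genes, and the 250 bases before each start were searched on both strands. A gene was counted if any of its windows held the motif. The ETS factor core CCGGAAG, the motif bound by GA-binding protein, was in 16 of 65 genes (24.6%), against 10.2% of 17491 protein-coding genes. The core GCATGCGC of nuclear respiratory factor NRF1 was in 8 genes (12.3%, against 3.3%), and the YY1 core AAGATGGC was in 4 genes (6.2%, against 1.8%). At least 1 of these 3 cores was found in 25 genes (38.5%), against 14.3% of coding genes, and 3 genes held 2 or more, so most members held none. The CCAAT box, read as CCAAT, was in 24 (36.9%, against 39.5%), the TATA box letters TATAAA in 5 (7.7%, against 13.7%) and the cyclic AMP response element TGACGTCA in 2 (3.1%, against 2.2%). The motifs searched share no fixed overlap with each other. In each gene's window with the most CpG dinucleotides, the members held a median of 17, against 11 in all coding genes. GC content, averaged over a gene's windows, had a median of 58.0%, against 55.6%. A letter match is a description of the window and not a measured binding site.

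Start windows of 5 genes are printed here, chosen after their values were seen. Mrps25, Mrps26 and Mrps21 had the widest differences of all members in a comparison with control, Mrpl33 had the widest higher value of Maresin 1 over surgery, and Mrps22 is shown as an example of an ETS core close to the start. Each is the 250 bases before the start, 5′ to 3′ on the gene's strand, with capitals marking an ETS or NRF1 core. Those of Mrps25 (chr6:92184024-92184273, minus strand) and Mrps21 (chr3:95871515-95871764, minus strand) held none of the 3 cores. That of Mrps26 (chr2:130563507-130563756, plus strand) held the reverse ETS core from 14 to 8 bases before the start. That of Mrpl33 (chr5:31613701-31613950, plus strand) held the reverse NRF1 core from 12 to 5 bases before it. The window of Mrps22 (chr9:98601680-98601929, minus strand) held the ETS core from 11 to 5 bases before it.
Mrps25: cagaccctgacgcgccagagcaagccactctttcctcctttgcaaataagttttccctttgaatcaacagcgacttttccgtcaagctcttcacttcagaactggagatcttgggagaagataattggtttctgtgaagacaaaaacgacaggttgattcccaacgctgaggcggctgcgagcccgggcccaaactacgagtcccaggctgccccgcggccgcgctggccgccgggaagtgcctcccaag
Mrps21: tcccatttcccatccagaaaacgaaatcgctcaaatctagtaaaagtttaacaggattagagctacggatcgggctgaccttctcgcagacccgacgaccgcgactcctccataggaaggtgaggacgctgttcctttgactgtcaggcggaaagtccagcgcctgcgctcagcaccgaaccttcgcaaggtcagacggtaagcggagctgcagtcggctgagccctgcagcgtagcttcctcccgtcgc
Mrps26: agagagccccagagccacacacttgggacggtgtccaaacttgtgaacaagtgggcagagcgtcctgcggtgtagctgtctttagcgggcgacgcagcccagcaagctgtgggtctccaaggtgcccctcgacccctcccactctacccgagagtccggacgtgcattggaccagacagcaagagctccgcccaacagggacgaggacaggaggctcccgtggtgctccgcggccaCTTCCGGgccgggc
Mrpl33: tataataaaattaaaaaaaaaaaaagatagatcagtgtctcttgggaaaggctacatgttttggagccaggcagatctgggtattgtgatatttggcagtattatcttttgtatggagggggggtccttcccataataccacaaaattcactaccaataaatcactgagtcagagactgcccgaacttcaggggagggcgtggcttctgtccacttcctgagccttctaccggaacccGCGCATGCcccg
Mrps22: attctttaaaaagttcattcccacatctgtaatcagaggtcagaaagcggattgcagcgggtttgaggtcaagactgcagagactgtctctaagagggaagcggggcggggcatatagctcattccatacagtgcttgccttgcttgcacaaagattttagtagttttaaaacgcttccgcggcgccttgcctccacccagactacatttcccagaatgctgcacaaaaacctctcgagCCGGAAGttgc

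Many mitoribosomal genes start back to back with another gene. A protein-coding gene on the opposite strand started within 1000 bases upstream of 23 of the 65 genes (35.4%), against 8.5% of coding genes. In 1 case the neighbour is itself a member. Mrpl46, a large-subunit gene, and Mrps11, a small-subunit gene, have starts 42 bases apart, and the 41 bases between them (chr7:78783090-78783130, plus strand, all in lower case because no core was found) are shown to make the shared stretch visible.
Mrpl46 to Mrps11: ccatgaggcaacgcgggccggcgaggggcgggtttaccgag

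**Figure D1:**
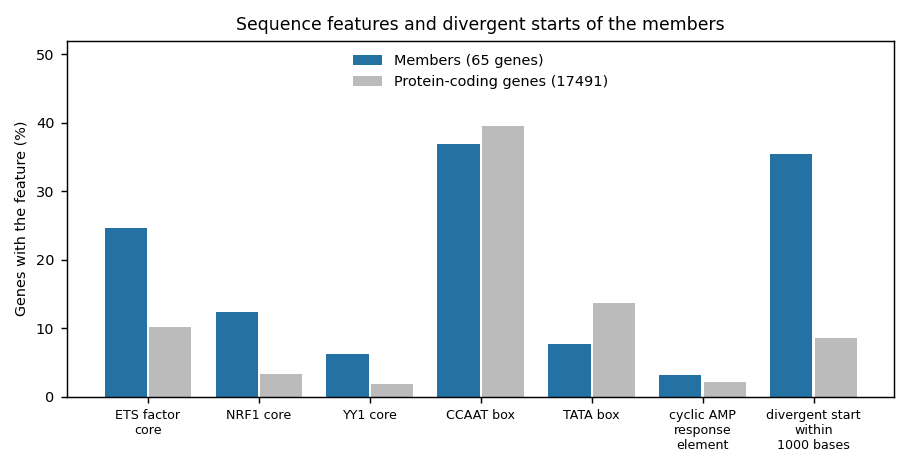
Share of genes (%) with each sequence feature in the 250 bases before any of their starts, or with a divergent coding start within 1000 bases. Blue bars are the 65 members with a RefSeq promoter, and grey bars are 17491 protein-coding genes. The ETS, NRF1 and YY1 cores and divergent starts were more frequent among the members, whereas the CCAAT and TATA boxes were not.

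Every member gave signal in this tissue. All 74 lay above the level of olfactory receptor genes, used as a background guide because they serve the nose, in every array, whereas 71.0% of all genes had a mean above that level (5.86, the 95th percentile of 990 olfactory receptor genes). Mean signals, on the scale log2(quantile-normalised intensity + 16) used for every level and difference here, ran from 6.42 for Mrpl44 to 10.18 for Mrpl42. Mrpl44, Mrpl22, Mrps28 and Mrps12 had the dimmest probe sets, and Mrpl42, Mrpl10, Mrpl57 and Mrps21 the brightest. Such levels depend on the probes and do not rank the genes' transcripts. The median within-group SD of the members was 0.09, against 0.11 for all genes and 0.10 for genes above the olfactory receptor level. It was lowest for Mrps23 (0.03), a mitochondria-specific small-subunit gene, and highest for Mrps16 (0.21), the homologue of bacterial ribosomal protein S16. In Mrps16 that spread rested on control replicate 2, at 6.85 where the other 8 arrays lay between 7.21 and 7.49.

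Some differences between arrays cut across the groups. The highest array median of the deposited signal, 100, was 1.85-fold the lowest, 54.1. Choroid plexus transcripts, the brain's cerebrospinal fluid-secreting epithelium, set control replicates 2 and 3 apart: the summed normalised signal of 9 of 10 listed markers measured was 817 in control replicate 1, 15069 and 18859 in replicates 2 and 3, and between 719 and 1061 in the 6 operated arrays. No marker of that list was at 0 in any array. Endothelial markers (6 of 6) were higher in the operated arrays, at a summed signal of 1539 to 1642 in control, 2074 to 2168 after surgery and 1784 to 2477 with Maresin 1. Pericyte and smooth muscle markers (6 of 6 measured) summed to 1480 to 1559, 1879 to 1972 and 1608 to 2026, and 1 was lower with Maresin 1 than in control. Microglial markers (6 of 6 measured) summed to 2204 to 2351 in control, 2436 to 2532 after surgery and 2227 to 2730 with Maresin 1. By log2 difference from control, 1 microglial marker was lower after surgery and 2 were lower with Maresin 1. Red cell markers (2 of 4 measured) summed to 89.8 to 103, 137 to 269 and 101 to 184. Of these 2, only 1 was above the olfactory receptor level, and between Maresin 1 and control they went opposite ways (0.56 and -0.10). The 7 markers of hippocampal pyramidal and granule neurons were all above the olfactory receptor level, with overlapping sums in the 3 groups. The part of these cell types in the differences below was not tested, and in bulk tissue fewer cells of a type and less RNA per cell cannot be told apart.

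As a family, the mitoribosomal genes varied more among arrays of a group than between groups. The mean deviation of the 74 genes from their own 9-array means was 0.02, -0.08 and 0.03 in the control arrays, 0.02, 0.02 and -0.06 in the surgery arrays, and 0.02, 0.03 and -0.02 in the Maresin 1 arrays. Each group thus held 2 arrays near 0.02 to 0.03 and 1 low array, and the groups overlapped. The group means were -0.01 ± 0.06 (SD, n = 3) in control, -0.00 ± 0.05 after surgery and 0.01 ± 0.03 with Maresin 1. Control replicate 2 was the lowest array for 27 members (36.5%, against 20.1% of all genes), surgery replicate 3 for 19 (25.7%, against 7.61%) and Maresin 1 replicate 3 for 15 (20.3%, against 16.1%). Together these 3 arrays were the lowest for 61 of the 74 members, against 43.7% of all genes. In the deposited signals before normalisation, the members' median over the array median was 3.44 in control replicate 2 and 3.89 in Maresin 1 replicate 3. This ratio was between 4.72 and 5.19 in the other 7 arrays, surgery replicate 3 included at 4.75.

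**Figure D2:**
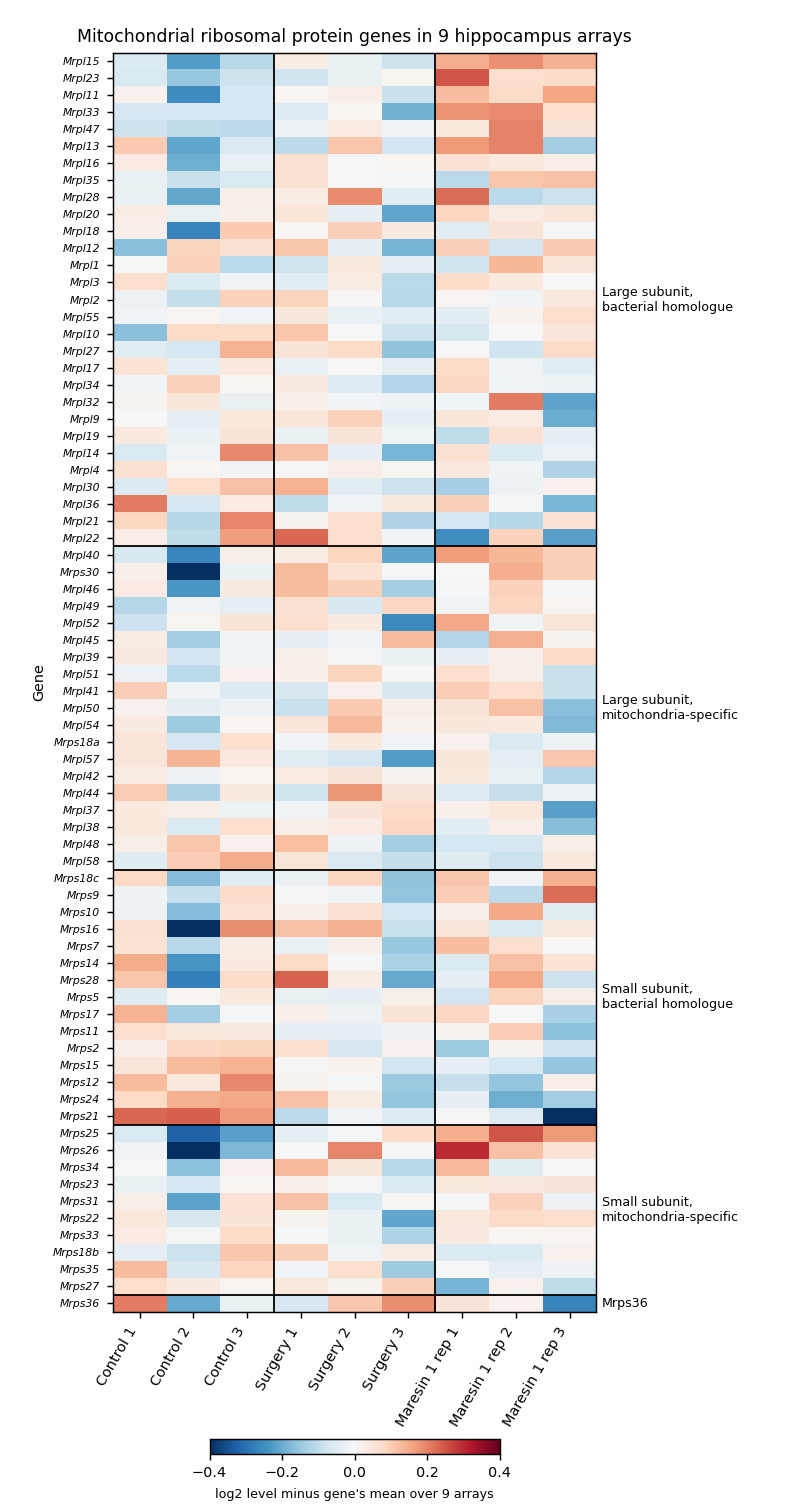
Log2 signal of each of the 74 genes (rows, by subunit and class) in each of the 9 arrays (columns) minus the gene's 9-array mean; red is higher, blue lower, and colours saturate at -0.4 and 0.4. The columns of control replicate 2 and surgery replicate 3 are mostly blue, and the rows of Mrps25, Mrps26 and Mrps21 show the widest steps between groups.

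The F test in limma over the 3 groups called no member and 0 of 18820 genes (0%) at an adjusted p under 0.05. At an unadjusted p under 0.05, 11 of 74 members (against 8.85% of genes) differed. Mrps25 had the smallest adjusted p of any member in that test, at 0.227.

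By class mean, the 4 groups of members also overlapped between conditions, with 1 exception that did not hold by class median. The mitochondria-specific genes of the small subunit had mean deviations of 0.02, -0.14 and 0.00 in control, 0.04, 0.02 and -0.04 after surgery, and 0.04, 0.05 and 0.02 with Maresin 1. By this mean, Maresin 1 arrays lay above all control arrays, though by little outside control replicate 2, and they overlapped the surgery arrays. By the class median they overlapped control, at 0.04, 0.03 and 0.01 against 0.01, -0.08 and 0.04. The class holds Mrps25 and Mrps26, which differed from control by 0.39 and 0.38. By median, large-subunit genes with a bacterial homologue were the ones above control, at 0.05, 0.03 and 0.03 against -0.002, -0.07 and 0.02. The small-subunit genes with a bacterial homologue were at 0.03 ± 0.08 (SD, n = 3) in control, -0.02 ± 0.06 after surgery and -0.01 ± 0.03 with Maresin 1. Large-subunit genes with a bacterial homologue were at -0.02 ± 0.04, -0.01 ± 0.05 and 0.02 ± 0.02, and the mitochondria-specific ones at -0.01 ± 0.05, 0.01 ± 0.04 and 0.01 ± 0.03. In these 3 classes, group means differed by less than the spread within a group or by about as much.

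**Figure D3:**
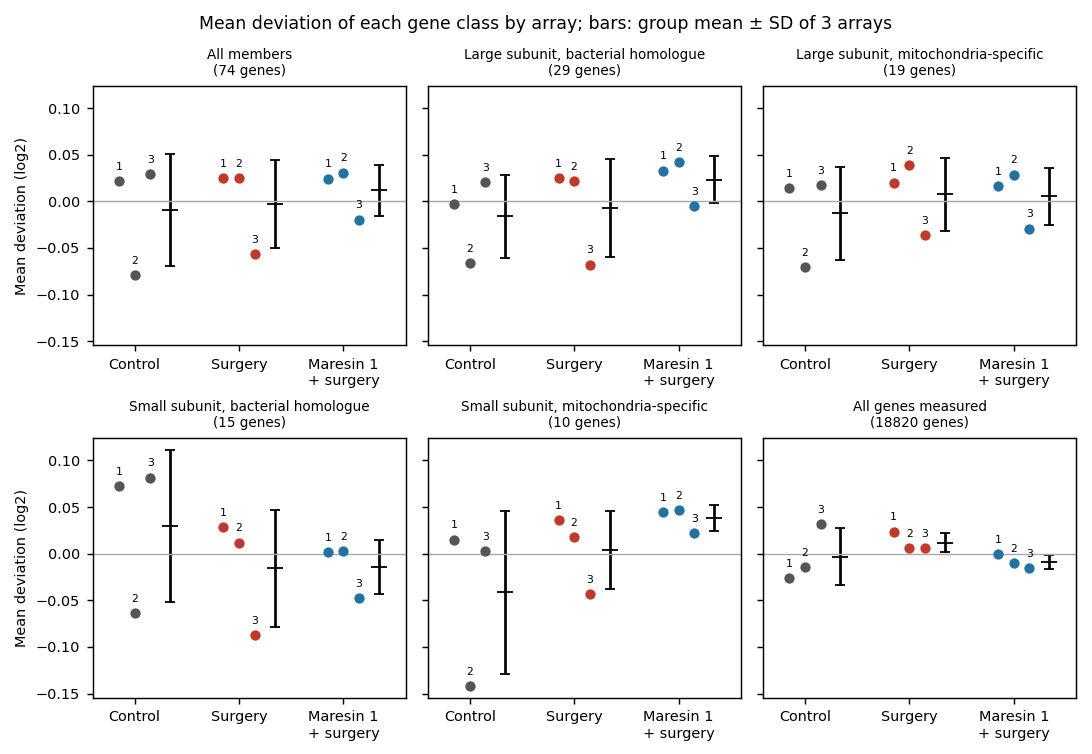
Mean deviation (log2) of each class of genes from the genes' own 9-array means, 1 numbered point per array, with the group mean ± SD of 3 arrays beside the points. Control replicate 2 and surgery replicate 3 are the lowest arrays of their group in each mitoribosomal class, and control replicate 2 is not the lowest control array over all 18820 genes.

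The comparison of surgery with control sets mice 72 h after the operation beside control mice. The labels do not state whether control mice had anaesthesia or a sham procedure, so the operation cannot be told apart from these. No member passed the adjusted threshold, and 0 of 18820 genes (0%) did. At an unadjusted p under 0.05, 4 of 74 members stood, 2 higher and 2 lower, a share of 5.41% against 6.21% of all genes (3.9% higher and 2.31% lower). The median difference over the members was 0.01, against 0.02 over all genes, and 39 of 74 (52.7%) were higher after surgery, against 58.4% of genes. With each array scaled to 1 median in place of quantile normalisation, 71 members (95.9%, against 75.7% of genes) were higher, with a median of 0.14 against 0.10 for all genes. Centring the log2 values of each array gave 69 members higher (93.2%, against 79.1%). Without control replicate 2 the count was 25 (33.8%, against 54.3% of genes), and without surgery replicate 3 it was 51 (68.9%, against 58.8%). Against control replicate 1 alone it was 32 (43.2%, against 60.5%), with a median of -0.009 against 0.03 for all genes. The balance of higher and lower members thus moved with the scaling and with single arrays of both groups. In 62 of 74 members the difference was within 0.1 in either direction, and the widest were -0.27 and 0.28.

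Groups did not overlap in 9 members, 4 higher and 5 lower after surgery (12.2%, against 11.5% of all genes, of which 7.71% higher and 3.82% lower). Mrps26, which encodes a mitochondria-specific protein of the small subunit, was at 8.06, 7.60 and 7.89 in the control arrays and at 8.07, 8.27 and 8.07 in the surgery arrays. The lowest surgery array was barely above the highest control array, and the widest gap came from control replicate 2. The difference was 0.28 (SE 0.11, adjusted p = 0.770 in limma). It was 0.08 against control replicate 1 alone and 0.16 without control replicate 2. Mrps25, another mitochondria-specific small-subunit gene, was at 8.36, 8.09 and 8.20 in control and at 8.38, 8.41 and 8.49 after surgery. Its surgery arrays were close to control replicate 1 and above the other control arrays, with a difference of 0.21 (SE 0.08, adjusted p = 0.741) that was 0.07 against control replicate 1 alone. Mrpl47, the homologue of bacterial L29 at the exit of the peptide tunnel, differed by 0.09 (adjusted p = 0.879). For Mrpl35, the homologue of bacterial L35, the difference was 0.08 (adjusted p = 0.878). With arrays scaled to 1 median these values were 0.17 for Mrpl47, 0.25 for Mrpl35 and 0.34 for Mrps25.

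Mrps21 had the widest lower value after surgery. It encodes the homologue of bacterial S21, and its signal was 10.06, 10.07 and 9.998 in control and 9.72, 9.81 and 9.78 after surgery. The arrays of each group lay close together and the groups were well apart. The difference was -0.27 (SE 0.09, adjusted p = 0.706), and -0.29 against control replicate 1 alone. With arrays scaled to 1 median it was -0.10. Mrpl57, a mitochondria-specific gene of the large subunit, was at 9.89, 9.98 and 9.88 in control and 9.80, 9.78 and 9.62 after surgery, a difference of -0.19 (SE 0.06, adjusted p = 0.706) that was -0.01 with arrays scaled to 1 median. Mrps12, whose product lies in the decoding centre, differed by -0.17 (adjusted p = 0.796), and by -0.10 with that scaling. Mrps15, the S15 homologue, differed by -0.12 and Mrps11, the S11 homologue, by -0.08, and both turned to higher after surgery when each array was scaled to 1 median (0.04 and 0.06) or centred (0.02 and 0.04). Of the 5 members lower without overlap, 4 were among the 15 small-subunit genes with a bacterial homologue (26.7%, against 3.82% of all genes). When arrays were scaled to 1 median, 0 members were lower without overlap.

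The comparison of both operated groups sets Maresin 1 with surgery beside surgery. No member passed, nor did any other gene (0%), and 5.66% of genes had an unadjusted p under 0.05. By that measure 5 members were higher with Maresin 1 and 0 lower, against 1.96% and 3.7% of all genes in these directions. The median difference over the members was 0.01, against -0.02 over all genes, and 41 of 74 (55.4%) were higher with Maresin 1, against 41.7% of genes. Scaling each array to 1 median turned this balance, with 12 members (16.2%, against 23%) higher, and centring gave 17 (23%, against 21.9%). The difference was within 0.1 in 52 members and ran from -0.22 for Mrpl22 to 0.22 for Mrpl33.

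In this comparison groups did not overlap in 11 members, all 11 higher with Maresin 1 (14.9%), where 4.79% of all genes were higher and 8.2% lower without overlap. With arrays scaled to 1 median, 0 members were higher and 4 lower without overlap (genes 1.77% and 13.9%), and with centring 0 and 5, so the direction of this count flips with the scaling. Mrpl33, the homologue of bacterial L33, was at 8.37, 8.42 and 8.23 after surgery and at 8.60, 8.61 and 8.48 with Maresin 1. All Maresin 1 arrays were above all surgery arrays, with a difference of 0.22 (SE 0.07, adjusted p = 0.859). Mrpl33 was at 8.35 in each control array, so surgery alone lay around control (-0.01). Mrpl15, the homologue of L15, was at 8.60, 8.54 and 8.48 after surgery and at 8.71, 8.75 and 8.71 with Maresin 1, a difference of 0.18 (SE 0.07, adjusted p = 0.859).

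The other members that the naming rule reached in that comparison were closer. Mrps25 differed by 0.18, with Maresin 1 arrays at 8.56, 8.67 and 8.58. Mrpl23, the L23 homologue beside the exit of the peptide tunnel, differed by 0.16, with surgery arrays at 9.37, 9.43 and 9.46 and Maresin 1 arrays at 9.70, 9.52 and 9.52. Mrpl40, a mitochondria-specific large-subunit gene, differed by 0.16, and its control arrays reached 9.70, inside the surgery range. Mrpl57 differed by 0.15, from a surgery mean of 9.73 ± 0.10 (SD, n = 3) to 9.88 ± 0.07, near its control mean of 9.92 ± 0.05, and with arrays scaled to 1 median it differed by -0.007. Mrpl11, whose product is at the base of the stalk that binds translation factors, differed by 0.14. Mrps22, a mitochondria-specific small-subunit gene, also differed by 0.14. Its surgery array 3, at 8.09, was lower than the other 8, which lay between 8.23 and 8.37. Adjusted p was 0.859 for each of these 6 genes. Mrpl47 (0.10), Mrps33 (0.07) and Mrps23 (0.06) were also higher without overlap and lay beyond the naming rule. With arrays scaled to 1 median, the differences of the named members between Maresin 1 and surgery shrank, to 0.12 for Mrpl33, 0.07 for Mrps25 and for Mrpl15, 0.04 for Mrps22, 0.03 for Mrpl11, 0.01 for Mrpl23 and 0.01 for Mrpl40. Without surgery replicate 3 those of Mrpl40, Mrpl57 and Mrps22 were 0.07, 0.10 and 0.07, and without Maresin 1 replicate 1 that of Mrpl23 was 0.10.

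Maresin 1 with surgery was also compared with control, and here the members spread widest. No member was called, where 16 of 18820 genes (0.085%) were. At an unadjusted p under 0.05 there were 12 members (16.2%), 8 higher and 4 lower, against 11.5% of all genes (5.87% higher and 5.61% lower). The median difference was 0.02, against -0.00 over all genes, 41 of 74 (55.4%) were higher, against 49% of genes, and 55 were within 0.1. Scaled to 1 median, 49 members (66.2%, against 51.1%) were higher. Against control replicate 1 alone the count was 36 (48.6%, against 54.5% of genes), with a median of -0.008 against 0.02 for all genes. Without Maresin 1 replicate 2 it was 36 (48.6%, against 49.3%), and without Maresin 1 replicate 3 it was 48 (64.9%, against 50.3%). Groups did not overlap in 15 members (20.3%, against 14.3% of genes), 10 higher and 5 lower, where 7.61% and 6.71% of genes were so. With arrays scaled to 1 median or centred, groups overlapped in all 74 members, where 2.72% and 2.51% of genes were higher without overlap and 2% and 1.6% lower. Both comparisons with control share the control arrays, so they are not independent of each other.

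Mrps25 came closest to the threshold of all members. Its arrays with Maresin 1 (8.56, 8.67 and 8.58) all lay above the highest control array, 8.36, and its group mean was 8.60 ± 0.06 (SD, n = 3) against 8.21 ± 0.13. The difference was 0.39, a 1.31-fold higher signal (SE 0.08, adjusted p = 0.0886). Against control replicate 1 alone it was 0.25. Without that array it was 0.46 and passed (adjusted p = 0.00892 in limma), the only setting in which a member was called. In that setting 244 genes were called in this comparison, Mrps25 included, against 16 with all arrays. The controls left there were replicates 2 and 3, whose summed choroid plexus signal was 15069 and 18859, against 817 in replicate 1. Mrps26 was at 8.37, 8.19 and 8.12 with Maresin 1, above the highest control array, at 8.06, in all 3. Its difference was 0.38 (SE 0.11, adjusted p = 0.210), and 0.17 against control replicate 1 alone.

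Large-subunit genes made up the rest of the higher side that the naming rule reached. Mrpl15, at 8.51, 8.34 and 8.45 in control, was apart from control by 0.29 (SE 0.07, adjusted p = 0.127), and by 0.21 from control replicate 1 alone. Mrpl23, at 9.39, 9.30 and 9.37 in control, differed by 0.23 (adjusted p = 0.179), and its second probe set differed by 0.22. Mrpl33 differed by 0.21 (adjusted p = 0.262). Mrpl40 (0.23), Mrpl11 (0.22) and Mrpl47 (0.19) were higher as well. Against control replicate 1 alone Mrpl11 differed by 0.10, without control replicate 2 Mrpl40 differed by 0.15, and over the mean of its probe sets Mrpl47 differed by 0.11. Mrpl47 was at 7.41, 7.39 and 7.38 in control, 7.46, 7.52 and 7.47 after surgery, and 7.53, 7.69 and 7.54 with Maresin 1, so no 2 of the 3 groups overlapped. Mrps25 likewise had 3 groups without overlap. Of the 10 higher members, 6 were among the 29 large-subunit genes with a bacterial homologue (20.7%). Another 1 was among the 19 mitochondria-specific large-subunit genes (5.26%), and 3 were among the 10 mitochondria-specific small-subunit genes (30%). Of all genes, 7.61% were higher without overlap.

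All 5 members lower than control without overlap encode small-subunit proteins with a bacterial homologue. They are 5 of the 15 genes of that class (33.3%, against 6.71% of all genes lower without overlap). Over the whole class, the median difference was 0.01 and 8 of 15 (53.3%) were higher, against 49% of genes. Mrps21 was at 9.83, 9.78 and 9.40 with Maresin 1, below its control mean of 10.04 ± 0.04 (SD, n = 3), a difference of -0.37 (SE 0.09, adjusted p = 0.146). Replicate 3 was well below the other 2 arrays of its group, and all 3 were below control. Against control replicate 1 alone the difference was -0.39, and without Maresin 1 replicate 3 it was -0.24. Mrps24, the homologue of S3 at the messenger RNA entry, was at 8.69, 8.76 and 8.76 in control and 8.58, 8.42 and 8.48 with Maresin 1. That difference was -0.25 (SE 0.08, adjusted p = 0.240), and 1 of its surgery arrays, at 8.73, lay within the control range. Mrps15 differed by -0.19 (adjusted p = 0.216), with control at 9.42, 9.50 and 9.51 and Maresin 1 at 9.34, 9.30 and 9.22. For Mrps12 the difference was -0.19 (adjusted p = 0.422) and for Mrps2, the S2 homologue, -0.13 (adjusted p = 0.438). Mrps21, Mrps15 and Mrps12 were the genes that lay below control without overlap in both operated groups under quantile normalisation. With arrays scaled to 1 median or centred, 0 members lay below control without overlap in either operated group.

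**Figure D4:**
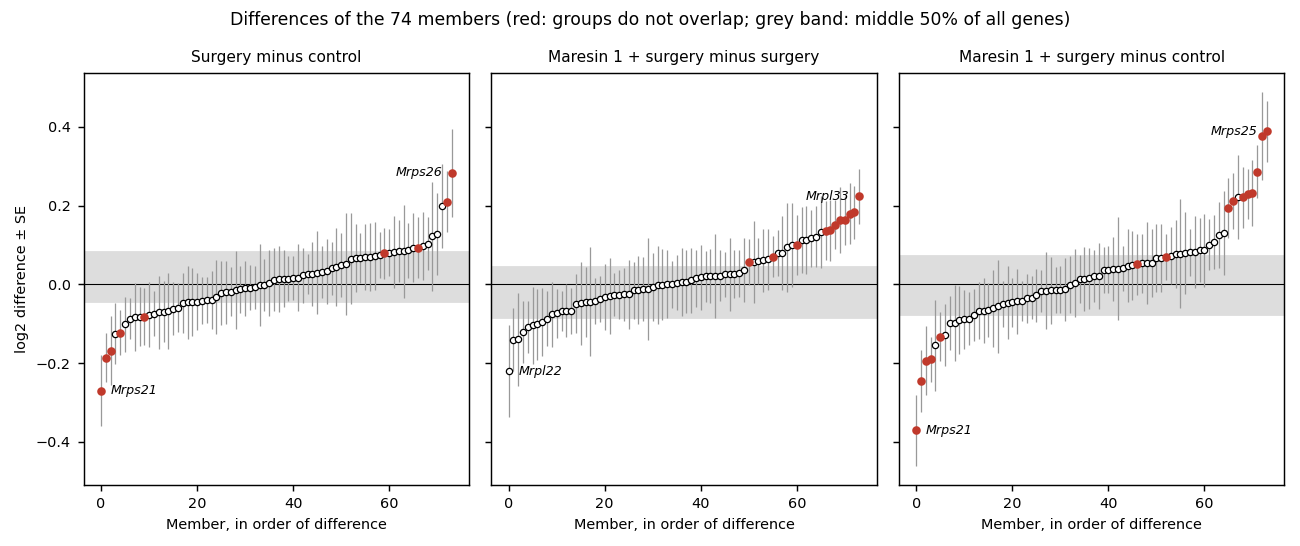
Log2 difference ± SE of each of the 74 genes in the 3 comparisons, ordered by difference; red points are genes whose groups do not overlap, and the grey band holds the middle 50% of all 18820 genes. Most points lie within 0.1 of 0, Mrps21 is lowest in both comparisons with control, and Mrps25 is highest in that of Maresin 1 with control.

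**Figure D5:**
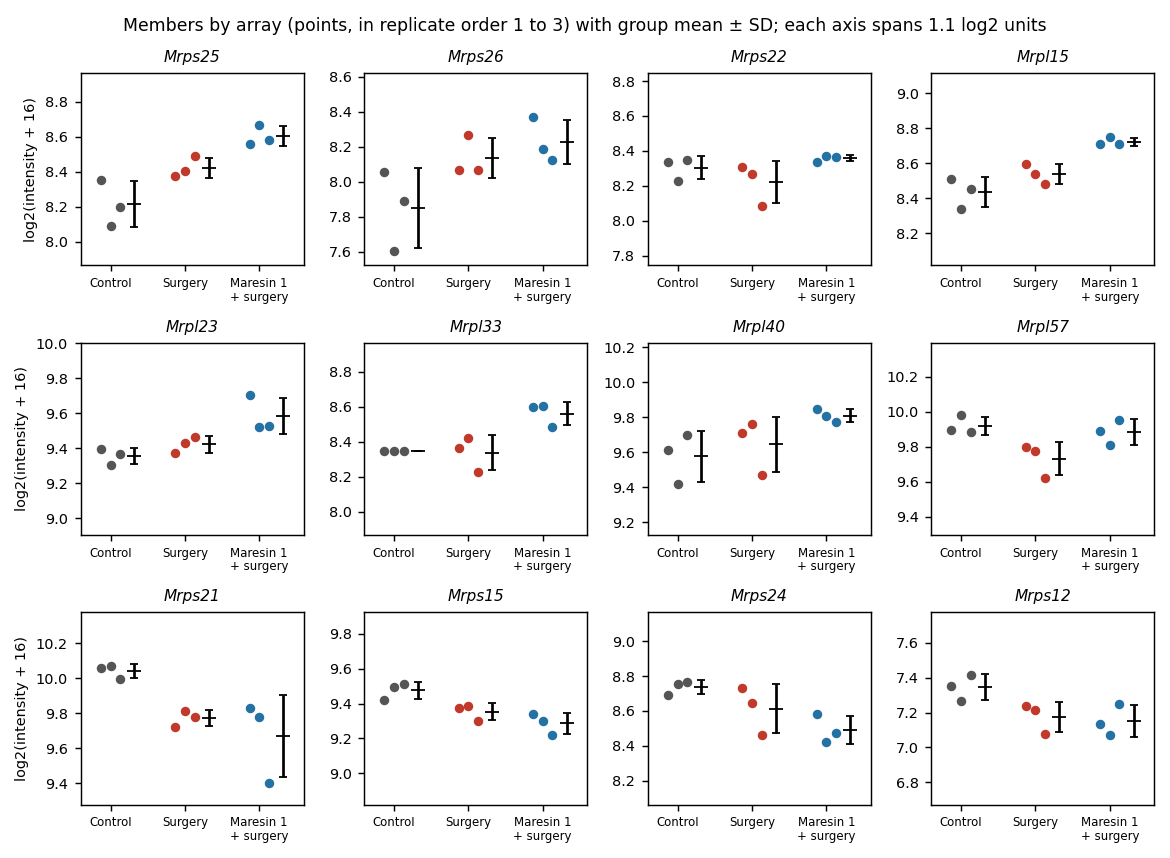
Log2 signal of 12 of the named genes in each array, 1 panel per gene with an axis span of 1.1 log2 units, points for the 3 replicates of each group and bars for the group mean ± SD (n = 3). Mrps25 lies higher from control through surgery to Maresin 1, Mrps21 lies lower in both operated groups, and Mrpl57 is lower after surgery alone.

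Related genes and repeated probe sets did not move as units. The Mrps18 paralogs, which encode 3 related proteins of which Mrps18a belongs to the large subunit, overlapped between all groups: Maresin 1 differed from control by -0.03 in Mrps18a, -0.03 in Mrps18b and 0.13 in Mrps18c. Mrps36 overlapped as well, from 7.46 to 7.87 in control, 7.59 to 7.85 after surgery and 7.40 to 7.72 with Maresin 1. Several probe sets of 1 gene were present for 12 members, and 11 had at least 2 above the olfactory receptor level. All such probe sets of a gene had the same sign in 7 of 11 genes for surgery against control, in 6 for Maresin 1 against surgery and in 8 for Maresin 1 against control. Mrps30, a mitochondria-specific large-subunit gene, differed between Maresin 1 and control by 0.22 on the probe set used and by -0.14 on its dimmer one. For Mrps10 the same comparison gave 0.09 on the probe set used and -0.03 and 0.27 on the others.

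Differences of members and their divergent partners were set side by side in the 21 pairs with both genes measured. Member and partner had the same sign in 13 of 21 pairs for surgery against control, in 11 for Maresin 1 against surgery and in 13 for Maresin 1 against control. Mrpl46 was 0.08 higher after surgery than in control (adjusted p = 0.916), and Mrps11, on the other side of the 41 bases shown above, was at -0.08 (adjusted p = 0.884). Mrpl57 was at -0.19 in that comparison, where its partner Ska3, a kinetochore gene, was at 0.02. Mrps12 was at -0.17 and its partner Sars2, the mitochondrial seryl-tRNA synthetase gene, at -0.04. Between Maresin 1 and control, Mrpl40 differed by 0.23 and its partner Hira, a histone chaperone gene, by -0.02. Mrpl47 differed by 0.19 there and Ndufb5, which encodes a subunit of respiratory complex I, by 0.08 (adjusted p = 0.697). Other pairs had close values. Mrps27, a mitochondria-specific small-subunit gene, was at -0.14 between Maresin 1 and surgery and its partner Ptcd2 at -0.13, and Mrpl14, the L14 homologue, was at -0.07 after surgery, as was Tmem63b. No partner passed the test in any comparison.

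The rest of the mitochondrial translation pathway gave no called gene either, in any of the 3 comparisons. Of 5 mitoribosomal proteins listed under other symbols, 3 were measured. Dap3, which encodes a GTP-binding protein of the small subunit, differed by 0.07 after surgery and by 0.06 with Maresin 1 against control, Ptcd3 by 0.02 and 0.01, and Chchd1 by -0.14 and -0.08. Of 22 assembly genes measured of 26, 18 (81.8%) were higher after surgery than in control, with a median of 0.06, against 58.4% and 0.02 for all genes. At an unadjusted p under 0.05 there was 1 of them (4.55%, against 6.21% of genes). With Maresin 1 against control 14 (63.6%, against 49%) were higher. These counts are under quantile normalisation only. With arrays scaled to 1 median, 75.7% of all genes were higher after surgery. Mettl15, a methyltransferase of the small-subunit RNA, was at 7.49, 7.40 and 7.56 in control, 7.70, 7.71 and 7.69 after surgery, and 7.72, 7.88 and 7.71 with Maresin 1. Both operated groups lay above control, by 0.21 (adjusted p = 0.741) and 0.28 (adjusted p = 0.185). Gtpbp10, a GTPase of large-subunit assembly, differed by 0.18 and 0.26, and Mrm3, a methyltransferase of the large-subunit RNA, by 0.20 and 0.09.

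Factors that act around the ribosome came from 3 further lists. Of 13 translation factors measured of 15, 7 (53.8%, against 58.4% of all genes) were higher after surgery and 9 (69.2%, against 49%) with Maresin 1 against control. Mtrf1l, a release factor, differed from control by 0.21 and 0.22, and Taco1, a translational activator of cytochrome c oxidase subunit I, by 0.12 and 0.19. Of 19 aminoacyl-tRNA synthesis genes measured of 22, 13 (68.4%) were higher after surgery and 12 (63.2%) with Maresin 1, against the same 58.4% and 49% of genes. Nars2, the mitochondrial asparaginyl-tRNA synthetase gene, was 0.11 above control after surgery and 0.29 with Maresin 1 (adjusted p = 0.210), and Mars2, the methionyl counterpart, 0.17 and 0.23. Among 14 genes for expression and upkeep of mitochondrial DNA, of 15 listed, 6 (42.9%) were higher after surgery and 7 (50%) with Maresin 1 against control. Again 58.4% and 49% of all genes were higher. Groups did not overlap in 6 of these 14 genes (42.9%, against 11.5% of all genes) for surgery and in 7 (50%, against 14.3%) for Maresin 1, in both directions. At an unadjusted p under 0.05 there were 3 and 5 of them (21.4% and 35.7%, against 6.21% and 11.5%). Counts for these lists are given under quantile normalisation only. With arrays scaled to 1 median, 12.4% of all genes were higher and 1.23% lower without overlap for surgery. For Maresin 1 against control these shares were 2.72% and 2%. Tfam, which packages and helps transcribe that DNA, was at 7.38, 7.22 and 7.56 in control, 7.59, 7.57 and 7.62 after surgery and 7.70, 7.69 and 7.66 with Maresin 1. Its operated arrays all lay above control, by 0.21 (adjusted p = 0.781) and 0.30 (adjusted p = 0.210). Ssbp1, the mitochondrial single-stranded DNA-binding protein, lay lower, by -0.23 after surgery (adjusted p = 0.708) and -0.15 with Maresin 1. The coactivator Ppargc1a differed by -0.04 after surgery and -0.16 with Maresin 1, and Yy1, whose core was searched above, by 0.17 and 0.16. No gene encoded by mitochondrial DNA was measured on a probe set of its own (0 of 13 listed), so the products of mitochondrial translation were not analysed here.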

How the data were processed

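The deposited values are linear probe set intensities made by the authors in Expression Console, according to the submitters' processing notes. Which version and algorithm they used is not stated there. Array medians differed, so the intensities were quantile normalised, 16 was added and log2 was taken. Of 35556 probe sets, 21218 name 1 gene, and the brightest on average stood for each of 18820 genes. Arrays have no read depth, and 3 arrays per group limit the precision. Groups came from the titles.

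The tests used limma 3.58.1 (R 4.3.3), in 1 model over all 9 arrays with a variance prior that follows the level, two-sided, with Benjamini-Hochberg adjustment over all genes, called at an adjusted p under 0.05. The script was tested on simulated data. In each comparison the text names called members, then up to 8 in each direction without overlap by p, the 4 brightest and 4 dimmest, the Mrps18 paralogs, members with over 1 probe set, and up to 3 genes per pathway list. The members and lists were chosen with earlier results of these data known. Alternatives were other scalings, pseudocounts of 1 and 64, a filter on dim genes, mean probe sets, array weights, other fits and left-out arrays.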

Additional observations from a re-analysis of the deposited data

How the results depend on the processing

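No member was called in any comparison under any alternative, except Mrps25 between Maresin 1 and control without control replicate 1. The scaling moved most values. With arrays scaled to 1 median, 44 genes differed among the 3 groups, 37 were called between surgery and control and 38 between Maresin 1 and control. The members' median difference was then 0.14 after surgery (71 higher) and -0.10 between Maresin 1 and surgery (12 higher). Without normalisation these gene counts were 46, 42 and 43. With centring they were 71, 67 and 63, with 1 gene called between Maresin 1 and surgery, 69 members higher after surgery (median 0.12) and 17 between Maresin 1 and surgery (median -0.0832). Mrps15 and Mrps11 turned after surgery, to 0.0442 and 0.0613 with median scaling and 0.0208 and 0.0407 with centring, and Mrpl57 turned to -0.00697 between Maresin 1 and surgery with median scaling. The cause was not tested.

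Between Maresin 1 and control, 0 genes were called with only the 2 groups in the fit. With control replicate 1 as the only control, assumed to vary like the other groups, 4 were called, and 3 genes differed among the groups. Replicate numbers did not pair the arrays (correlations of deviations from -0.24 to 0.05 for equal numbers, and from -0.15 to 0.19 for others), and the replicate block gave 0 called genes there. Leaving out 1 array gave 0 to 186 genes differing among the groups, 0 to 167 called between surgery and control, and 0 to 244 between Maresin 1 and control, each highest without control replicate 1. Members called ranged from 0 to 1 in the last comparison. The count of members higher after surgery ranged from 25, without control replicate 2, to 51, without surgery replicate 3. The pseudocounts, the filter on dim genes, mean probe sets and array weights kept direction and call in the 30 differences of single members recomputed. These cover the members that the naming rule reached for groups without overlap. With 3 arrays per group, differences of the size seen in most members cannot be told from array spread.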
